A study of Mus musculus with 6 samples.

Results

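The genes described here are 10 transcription factor genes of photoreceptor fate: Crx, Nrl, Nr2e3, Otx2, Rorb, Prdm1, Thrb, Rxrg, Mef2d and Esrrb. They were chosen by name, for their known role in making or maintaining rods and cones, out of 32285 genes in the count table. The choice was made with earlier results of these data known, so shares among the 10 genes are descriptions only. All 10 were detected in every library and passed the filter on low counts, as did 20021 genes in all. Whole retinas of wild-type C57BL/6J mice were profiled by bulk RNA-seq at postnatal day 18 (PN18). All pups, together with their mothers, had spent PN8 to PN13 in 75% O2, the oxygen-induced retinopathy (OIR) model, in which high oxygen obliterates central retinal capillaries and the return to room air sets off new vessel growth. From the end of hyperoxia at PN13 until sampling, OIR-CIH mice were exposed to chronic intermittent hypoxia (CIH) in the daytime, their sleep period. It consisted of 266 daily cycles over 10 hours in which cage O2 swung from 20.95% down to 5% and back. OIR-Norm mice received the same gas flow and noise at constant oxygen. Each group had 3 libraries. The study's methods name 3 eyes per group, yet every library held both Xist RNA and Y-linked RNA. The number of animals behind a library is therefore not known from the sources used here, and p-values measure only the spread between these 6 libraries. The comparison asks how the level of each factor differed when CIH was added to OIR. No library of an untreated, non-OIR retina was analysed here, so every value is relative to OIR-Norm.

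Photoreceptor fate is set by a cascade of DNA-binding proteins. The homeodomain protein OTX2 commits a dividing progenitor's daughter to the photoreceptor lineage and switches on its relative CRX, which then drives genes of phototransduction in rods and cones alike. Within that lineage NRL directs cells to the rod fate, and its target NR2E3 activates rod genes while it represses cone genes. Precursors that lack NRL take a cone fate, and in cones the thyroid hormone receptor THRB and its partner RXRG set which opsin is made. Several of these genes stay active in the differentiated retina, where they maintain the expression of the photoreceptors' own genes.

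The 6 libraries held 26289905 to 38010151 counted reads, and each of the 10 genes had between 226 and 91165 counts per library. Levels below are in CPM, a gene's count scaled to the library's total after trimmed mean of M values (TMM) correction, and a difference is the log2 fold change of OIR-CIH over OIR-Norm from edgeR's quasi-likelihood test. OIR-Norm replicate 2 stood apart from the rest on the first principal component (28.1, against -15.8 to 3.51 for the other 5). It also had the most Xist RNA, 1653 CPM against 298.5 to 1092 CPM in the other 5. Summed Y-linked RNA ran from 57.29 CPM in OIR-CIH replicate 1 to 183.8 CPM in OIR-Norm replicate 3. Rod and cone markers of the labelled tissue were abundant: the 28 rod genes described below summed to between 79380 and 103200 CPM in the 6 libraries, and the cone opsin gene Opn1sw lay between 407.7 and 568.6 CPM.

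None of the 10 genes passed an adjusted p of 0.05 in edgeR with Benjamini-Hochberg adjustment over all genes tested, beside 0.390% of all genes that did (78 of 20021). At an unadjusted p under 0.05 there were 6 of the 10, where the background was 13.4% of all genes. Of these 5 were higher in OIR-CIH, against 6.30% of all genes, and 1 was lower, against 7.09%. The same 6 had groups that did not overlap, a condition met by 18.4% of all genes, 9.12% with OIR-CIH higher and 9.26% with OIR-CIH lower. With the groups apart, Crx, Nrl, Nr2e3, Otx2 and Thrb had the higher level in OIR-CIH and Rorb the lower. Prdm1, Rxrg, Mef2d and Esrrb overlapped. The median difference of the 10 genes was 0.15, against -0.005 over all genes tested. Library by library, the median deviation of the 10 genes from their own means was 0.19, 0.020 and 0.017 on the log2 scale in OIR-CIH and 0.036, -0.085 and -0.14 in OIR-Norm. OIR-CIH replicate 1 was thus the highest by far, and OIR-Norm replicate 1 lay above the other OIR-CIH libraries, so that over the 10 genes together the groups overlapped. Nr2e3 had both the largest difference and the smallest p of the 10, and its adjusted p of 0.0537 lay just above the threshold. With DESeq2 it passed (adjusted p = 9.29e-06) as the only one of the 10, beside 1.30% of all genes, and with limma on log2(CPM + 0.5) none did. The study's own list of significant genes, made with DESeq, also holds Nr2e3 as higher in OIR-CIH. In bulk RNA, fewer cells of a type and less RNA per cell cannot be told apart.

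**Figure D1:**
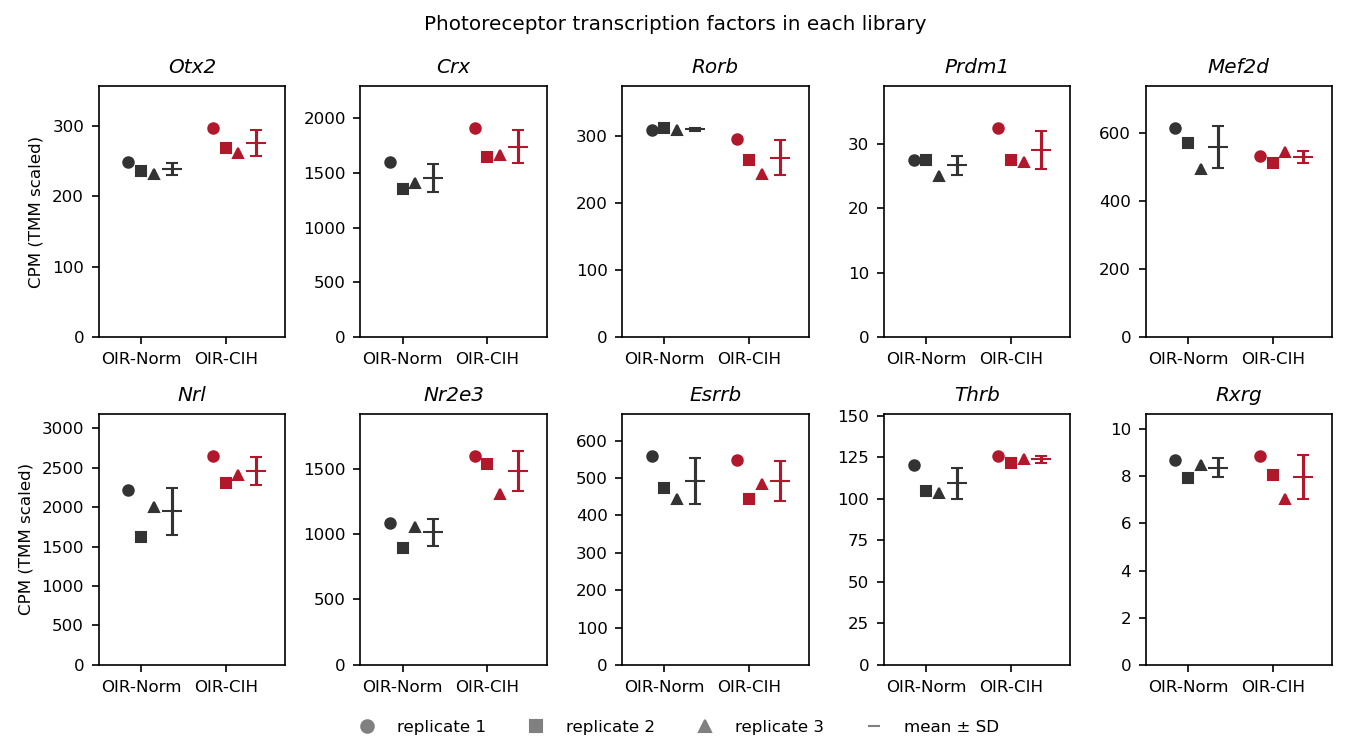
Level of each of the 10 factors in each library, in CPM, with OIR-CIH in red and OIR-Norm in black, 1 marker shape per replicate number and a bar at the group mean; each panel has its own axis. The 3 OIR-CIH points lie above all 3 OIR-Norm points for Crx, Nrl, Nr2e3, Otx2 and Thrb, below them for Rorb, and mix with them for the other 4 genes.

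Per kilobase of exon the 10 genes spanned a wide range of levels. Averaged over the 6 libraries, Crx stood highest at 505 ± 63.4 CPM per kb (SD, n = 6), followed by Nrl at 387 ± 62.6 and Nr2e3 at 370 ± 83.6. The ranges of these 3 neighbours overlapped. Mef2d came next at 90.9 ± 7.29 CPM per kb and overlapped with Esrrb at 81.3 ± 8.43. The remaining 5 did not overlap with their neighbours over the libraries, from Otx2 at 60.9 ± 5.73 CPM per kb through Rorb at 26.1 ± 2.56, Thrb at 15.8 ± 1.34 and Prdm1 at 4.99 ± 0.443 down to Rxrg at 3.56 ± 0.293. The rod regulators Nrl and Nr2e3 and the shared regulator Crx thus held the top of this order, and the cone factor Rxrg and the early factor Prdm1 its end. Exon lengths were the merged exons of each gene in GENCODE M21, which count every annotated isoform, so a level per kb is too low for a gene of which only short isoforms are made.

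**Figure D2:**
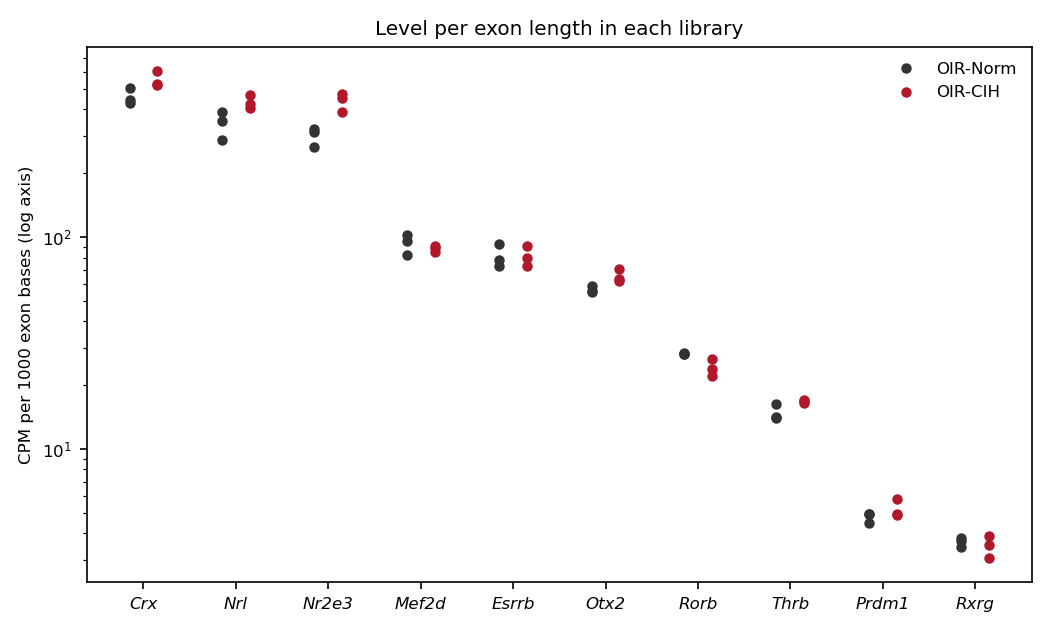
Level per kilobase of exon of the 10 factors on a log axis, in CPM per kb, 1 point per library with OIR-CIH in red and OIR-Norm in black. Crx, Nrl and Nr2e3 sit together at the top, and Rxrg, at 3.56 CPM per kb on average, at the bottom.

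The promoter windows of these genes were searched for the letters that the factors themselves bind. CRX and OTX2 recognise the letters TAATCC, NRL a site that holds TGCTGAC, and the orphan receptor ESRRB the letters TCAAGGTCA. Hypoxia-inducible factors, which are not among the 10, bind the core ACGTG. No separate letters were searched for RORB. RefSeq windows on GRCm38.p6 (250 bases before and 50 from the annotated start, both strands searched) were at hand for all 10 genes, 17 windows in all, some of them overlapping, because some genes have several starts. TAATCC was found in 3 of the 17 windows, those of Crx, Otx2 and Thrb, and in 7.06% of all 32851 windows. TGCTGAC occurred in 1 of the 17, a Rorb window, against 4.67% of all windows. TCAAGGTCA occurred in none of the 17, against 0.423%. ACGTG occurred in 4 of the 17 windows, from Otx2, Rorb and Thrb, against 19.6% of all. The Otx2 window with TAATCC, at chr14:48665060-48665359 on the minus strand, held both TAATCC and ACGTG, without overlap between them. The windows of 5 genes are printed for comparison: Crx, which has 2 matches to its own protein's site, Nrl and Nr2e3, the rod factors with the largest differences, which hold none of the 4 motifs, Thrb for its match, and Rorb, the gene of the opposite direction, for its NRL letters. They lie at chr7:15879906-15880205 on the minus strand (Crx), chr14:55524203-55524502 on the minus strand (Nrl), chr9:59950030-59950329 on the minus strand (Nr2e3), chr14:17660710-17661009 on the plus strand (Thrb) and chr19:19111147-19111446 on the minus strand (Rorb). Each reads 5′ to 3′ along the gene, with motif letters in capitals, where GGATTA is TAATCC read on the other strand:
Crx: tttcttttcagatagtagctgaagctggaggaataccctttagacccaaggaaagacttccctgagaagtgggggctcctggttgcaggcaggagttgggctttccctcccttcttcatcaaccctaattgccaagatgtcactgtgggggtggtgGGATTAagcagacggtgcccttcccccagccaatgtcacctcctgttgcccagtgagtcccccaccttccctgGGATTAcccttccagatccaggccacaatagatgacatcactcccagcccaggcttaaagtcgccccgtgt
Nrl: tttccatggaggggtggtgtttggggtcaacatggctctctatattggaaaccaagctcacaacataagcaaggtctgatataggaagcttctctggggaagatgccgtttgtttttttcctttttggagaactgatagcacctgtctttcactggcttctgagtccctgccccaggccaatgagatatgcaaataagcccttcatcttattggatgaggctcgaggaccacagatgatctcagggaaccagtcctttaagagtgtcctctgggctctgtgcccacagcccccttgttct
Nr2e3: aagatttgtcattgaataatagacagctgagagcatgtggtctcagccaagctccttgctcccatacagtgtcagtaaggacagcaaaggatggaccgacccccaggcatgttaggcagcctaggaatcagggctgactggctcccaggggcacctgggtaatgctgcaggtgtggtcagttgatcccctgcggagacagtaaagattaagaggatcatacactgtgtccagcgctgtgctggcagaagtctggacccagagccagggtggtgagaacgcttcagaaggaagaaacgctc
Thrb: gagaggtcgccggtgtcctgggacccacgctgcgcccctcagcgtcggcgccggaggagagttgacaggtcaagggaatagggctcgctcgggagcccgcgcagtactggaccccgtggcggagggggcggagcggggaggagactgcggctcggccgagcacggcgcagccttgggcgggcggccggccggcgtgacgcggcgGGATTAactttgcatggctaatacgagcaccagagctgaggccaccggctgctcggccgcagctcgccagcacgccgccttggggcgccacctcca
Rorb: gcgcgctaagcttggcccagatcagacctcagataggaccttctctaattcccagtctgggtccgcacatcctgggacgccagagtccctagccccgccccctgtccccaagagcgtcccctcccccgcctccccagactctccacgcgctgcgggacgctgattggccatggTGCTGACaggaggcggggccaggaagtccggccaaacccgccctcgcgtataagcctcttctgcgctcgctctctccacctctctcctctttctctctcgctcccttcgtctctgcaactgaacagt
The first Crx match began 94 bases before the annotated start and the second 21 before it. The Thrb match began 46 bases before the start and the Rorb match 77 before it. These are exact letter matches in annotated windows. A site that differs from the letters in any base, in the Nr2e3 and Nrl windows too, was not counted. No binding was measured.

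Of the 3 rod factors, Nr2e3 and Nrl had the largest differences among the 10 genes and Esrrb the smallest. Nrl (ENSMUSG00000040632, GRCm38 chr14:55518978-55524981, minus strand) encodes the basic leucine zipper protein that directs precursors to the rod fate, and its window printed above held none of the motifs. Its level was 2654, 2303 and 2413 CPM in OIR-CIH and 2216, 1624 and 2000 CPM in OIR-Norm. All OIR-CIH libraries were above all OIR-Norm libraries, and OIR-Norm replicate 2, which stood apart on the first component, was the lowest. The group means were 2457 ± 180 and 1947 ± 300 CPM (SD, n = 3 each), a log2 difference of 0.34 with an SE of 0.12 that did not pass in edgeR (adjusted p = 0.291). With each library left out in turn, the difference was smallest at 0.22 when OIR-Norm replicate 2 was dropped, and largest at 0.43 when OIR-Norm replicate 1 was.

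Nr2e3 (ENSMUSG00000032292, chr9:59942771-59960659, minus strand) encodes the orphan nuclear receptor that acts directly downstream of NRL, as a repressor of cone genes and a co-activator of rod genes. Its level was 1599, 1533 and 1309 CPM in OIR-CIH and 1085, 895 and 1057 CPM in OIR-Norm. The lowest OIR-CIH library was above the highest OIR-Norm library, with OIR-Norm replicate 2 again the lowest of all. The means of 1480 ± 152 and 1012 ± 103 CPM (SD, n = 3 each) gave a log2 difference of 0.55 with an SE of 0.11, or 1.46-fold. The 95% confidence interval ran from 24.6% to 71.7% higher in OIR-CIH. In edgeR the gene ranked 83 of 20021 by p and had an adjusted p of 0.0537. Its side of the threshold depended on the setting: it passed with scaling by total count (adjusted p = 0.0367 in edgeR) and with every counted gene kept (0.0150), and missed with limma (0.110). No fit that left out 1 library passed, with edgeR adjusted p values from 0.0532 to 0.268, and the log2 difference stayed between 0.47 and 0.63. A predicted gene on the same strand, Gm15507, shares 61 bases, or 1.81%, of the exons of Nr2e3 and had 111 to 186 counts per library.

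Esrrb (ENSMUSG00000021255, chr12:86361117-86521628, plus strand) encodes an orphan nuclear receptor that acts downstream of NRL and is needed for rod survival. Its level was 548, 443 and 484 CPM in OIR-CIH and 560, 473 and 443 CPM in OIR-Norm. The groups covered the same range. The means were 492 ± 53.2 and 492 ± 60.6 CPM (SD, n = 3 each), and the 95% confidence interval of the difference ran from 14.7% lower to 17.0% higher. The edgeR adjusted p was 0.997. Of the 3 rod factors, 2 thus had groups apart with the higher level in OIR-CIH, and the third overlapped.

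Of the factors not particular to rods or to cones, Otx2 and Crx had groups apart with the higher level in OIR-CIH and Rorb the lower. Prdm1 and Mef2d overlapped. Otx2 (ENSMUSG00000021848, chr14:48657677-48673819, minus strand), the homeobox gene at the head of the cascade, is also active in bipolar cells and in the retinal pigment epithelium. It lay at 297, 268 and 261 CPM in OIR-CIH and at 249, 236 and 232 CPM in OIR-Norm. The groups did not overlap, and the 3 OIR-Norm libraries were close together. The means were 276 ± 18.9 and 239 ± 8.85 CPM (SD, n = 3 each), a log2 difference of 0.21 with an SE of 0.08 and an edgeR adjusted p of 0.296. An antisense gene, Otx2os1, shares 154 bases, or 3.65%, of the exons of Otx2. It had 540 to 745 counts per library and a log2 difference of -0.0025. Pigment epithelium RNA varied widely in these libraries: the 12 markers of that layer, none of them at 0, summed to 492 to 725 CPM in OIR-CIH and 332 to 683 CPM in OIR-Norm. None of the 12 passed, but 6 of them, all higher in OIR-CIH, had an unadjusted p under 0.05 in edgeR, against 6.30% of all genes. Of these, 3 had groups apart, against 9.12% of all genes with OIR-CIH higher. Those 3 were Ttr, the carrier of thyroid hormone and retinol (1.68-fold, edgeR adjusted p = 0.127), Lrat, an enzyme of the visual cycle (1.74-fold, 0.186), and Slc16a8, a lactate transporter (1.54-fold, 0.231). The differences of the 12 ran from -0.78 to 0.80 on the log2 scale, with 5 of them lower in OIR-CIH. Their part in the Otx2 difference was not tested.

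Crx (ENSMUSG00000041578, chr7:15865947-15879968, minus strand), the cone-rod homeobox gene with 2 copies of its own protein's letters in the window printed above, lay at 1911, 1642 and 1661 CPM in OIR-CIH. In OIR-Norm it lay at 1597, 1353 and 1406 CPM. The groups were apart by a narrow margin, 1642 against 1597 CPM. The means of 1738 ± 150 and 1452 ± 128 CPM (SD, n = 3 each) differed by 0.26 on the log2 scale with an SE of 0.10 (edgeR adjusted p = 0.308), 19.7% higher in OIR-CIH.

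Rorb (ENSMUSG00000036192, chr19:18930605-19111196, minus strand) encodes the orphan nuclear receptor that acts upstream of Nrl and is also made in amacrine and horizontal cells. It was the only gene of the 10 whose groups were apart with the lower level in OIR-CIH. Its level was 295, 265 and 245 CPM in OIR-CIH and 309, 313 and 309 CPM in OIR-Norm. The OIR-Norm libraries agreed within a few CPM, and all 3 OIR-CIH libraries were below them. The means of 268 ± 25.6 and 311 ± 1.94 CPM (SD, n = 3 each) gave a log2 difference of -0.21 with an SE of 0.08 (edgeR adjusted p = 0.308). The 12 amacrine and horizontal cell markers summed to 866 to 1080 CPM in OIR-CIH and 856 to 904 CPM in OIR-Norm, which overlap. Of the 12, 10 were higher and 2 lower in OIR-CIH, and none passed. The part of these cells in the Rorb difference was not tested.

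Prdm1 (ENSMUSG00000038151, chr10:44437177-44528501, minus strand) encodes a zinc finger repressor that holds new photoreceptors off the bipolar fate. It was scarce, at 32.5, 27.5 and 27.1 CPM in OIR-CIH and 27.5, 27.4 and 24.9 CPM in OIR-Norm. The groups overlapped, with OIR-CIH replicate 1 the highest. The log2 difference was 0.12 with an SE of 0.09 and an edgeR adjusted p of 0.611, and it was 0.034 without OIR-CIH replicate 1.

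Mef2d (ENSMUSG00000001419, chr3:88142372-88172086, plus strand) encodes a MADS-box factor that works with CRX at photoreceptor enhancers. It lay at 531, 511 and 544 CPM in OIR-CIH and 615, 570 and 494 CPM in OIR-Norm. The OIR-CIH libraries lay inside the OIR-Norm range. The log2 difference was -0.08 with an SE of 0.09, and the 95% confidence interval ran from -0.28 to 0.11 (edgeR adjusted p = 0.733). It was -0.014 without OIR-Norm replicate 1 and -0.17 without OIR-Norm replicate 3. The antisense gene 1700113A16Rik shares 531 bases, or 8.87%, of the exons of Mef2d but had only 17 to 41 counts per library.

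The cone factors were both low. Thrb (ENSMUSG00000021779, chr14:17660261-18038090, plus strand) encodes thyroid hormone receptor beta, the switch for M opsin in cones. Its level was 126, 122 and 124 CPM in OIR-CIH and 120, 104.6 and 103.5 CPM in OIR-Norm. The OIR-CIH libraries were close together and all above OIR-Norm replicate 1, the nearest of the controls. The means of 124 ± 2.17 and 109 ± 9.25 CPM (SD, n = 3 each) differed by 0.18 on the log2 scale with an SE of 0.08 (edgeR adjusted p = 0.353). Counts per gene do not separate the cone isoform of this receptor from the others.

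Rxrg (ENSMUSG00000015843, chr1:167598384-167639623, plus strand) encodes retinoid X receptor gamma, the partner of THRB in cones. It lay at 8.87, 8.04 and 7.01 CPM in OIR-CIH and 8.70, 7.93 and 8.45 CPM in OIR-Norm, on 226 to 269 counts. The groups overlapped. The log2 difference was -0.08 with an SE of 0.13, and its 95% confidence interval from -0.35 to 0.20 was the widest of the 10 (edgeR adjusted p = 0.826).

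**Figure D3:**
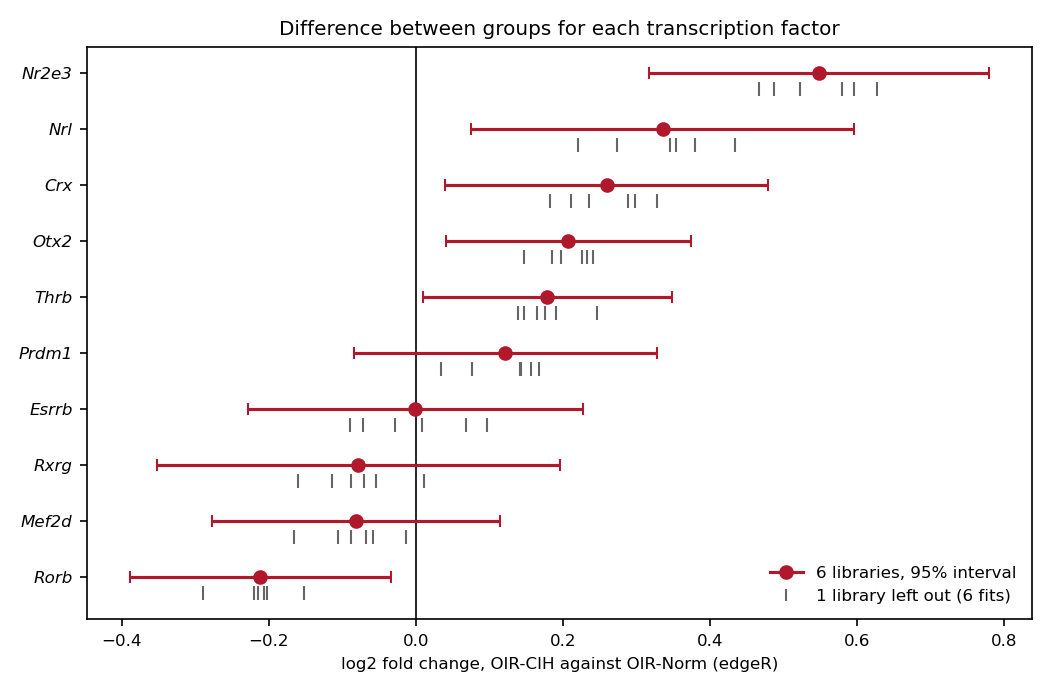
Log2 fold change of OIR-CIH over OIR-Norm for the 10 factors from edgeR, with bars for the 95% confidence interval. Nr2e3 lies farthest from 0 at 0.55, Rorb lies lowest at -0.21, and the intervals of Prdm1, Rxrg, Mef2d and Esrrb include 0.

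Ratios between transcripts of the same library do not depend on how libraries are scaled. In all, 12 ratios were compared by an exact two-sided permutation test of 3 against 3 libraries, whose smallest p is 0.1, and every ratio with groups apart had that p and a Benjamini-Hochberg adjusted value of 0.133. Nr2e3 was higher relative to Crx in OIR-CIH, with log2 ratios of -0.26, -0.10 and -0.34 against -0.56, -0.60 and -0.41 in OIR-Norm. The groups were apart and the means differed by 0.29. Nr2e3 relative to Nrl differed by 0.20 with overlapping groups (exact p = 0.2), and Nrl relative to Crx by 0.09 with overlapping groups (exact p = 0.4). The first was 0.13 without OIR-CIH replicate 2, and the second 0.0095 without OIR-Norm replicate 2. The ratio of Otx2 to Crx was -2.66 ± 0.04 in OIR-CIH and -2.60 ± 0.08 in OIR-Norm (SD, n = 3 each) and overlapped (exact permutation p = 0.4).

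Of the factors whose own levels overlapped, Mef2d, Esrrb and Rxrg were set against Crx, Nrl and Thrb, which had the higher level. Lower ratios in OIR-CIH thus partly restate the levels. Prdm1 was in no ratio, and ratios of other gene pairs were not computed for comparison. Relative to Crx, Mef2d was lower in OIR-CIH, at -1.85, -1.69 and -1.61 against -1.38, -1.25 and -1.51, a difference of -0.34. Esrrb relative to Nrl differed by -0.34, and Rxrg relative to Thrb by -0.26, each with groups apart and OIR-CIH lower. Without OIR-CIH replicate 3 the difference in Rxrg relative to Thrb was -0.17. The 2 ratios of Rorb were added after its values had been seen. Rorb relative to Otx2 was -0.01, -0.02 and -0.10 in OIR-CIH and 0.32, 0.41 and 0.42 in OIR-Norm, a difference of -0.42, and relative to Crx it differed by -0.48. Both had groups apart, as the opposite directions of the levels required.

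**Figure D4:**
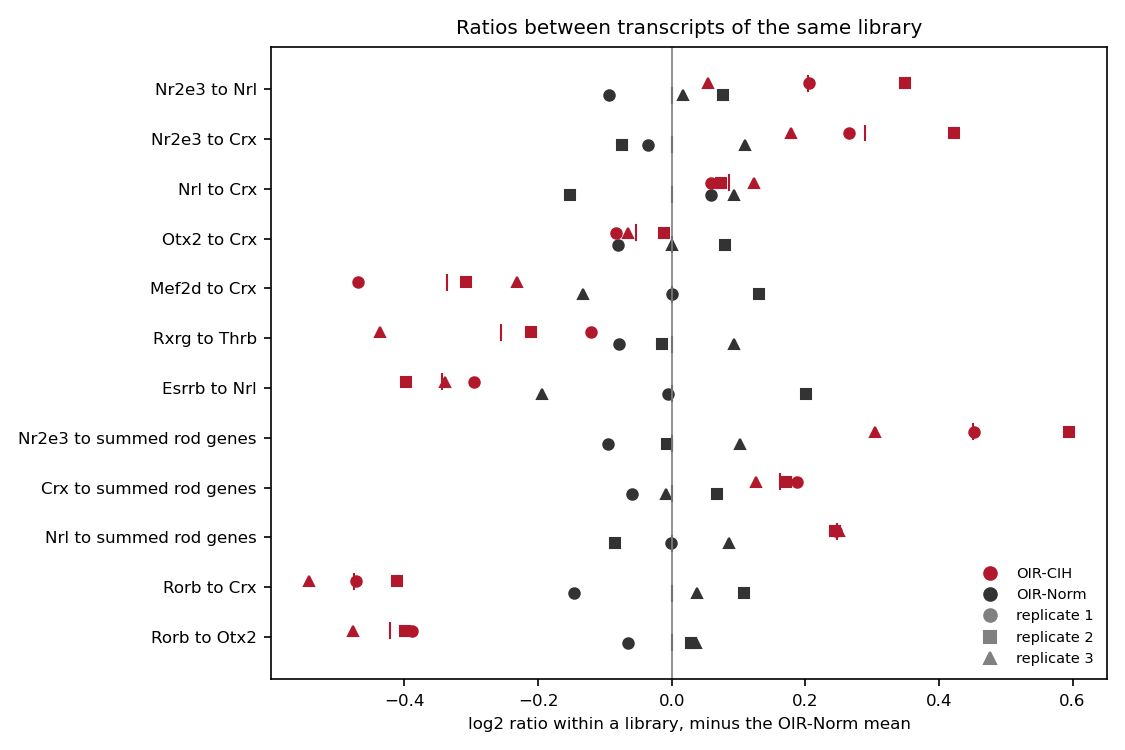
Log2 ratio of transcript levels within each library, minus the OIR-Norm mean of that ratio, for 12 ratios, with OIR-CIH in red, OIR-Norm in black and 1 marker shape per replicate number. The ratios of Nr2e3, Crx and Nrl to the summed rod genes lie to the right in OIR-CIH, and those of Rorb, Mef2d, Esrrb and Rxrg to the left.

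The rod factors were also compared with the rod genes they regulate, a list of 28 genes of the phototransduction cascade and the outer segment. None of the 28 passed, and 20 lay higher and 8 lower in OIR-CIH. At an unadjusted p under 0.05 in edgeR, 0 were higher, against 6.30% of all genes. There were 2 lower, Kcnj14 and Grk1, against 7.09%. Both had groups apart with OIR-CIH lower, against 9.26% of all genes, and 1 rod gene had them apart with OIR-CIH higher, against 9.12%. The median log2 difference of the 28 was 0.11. That median rested on single libraries, at 0.017 once OIR-Norm replicate 2 was left out. It was 0.035 when OIR-CIH replicate 1 was dropped and 0.17 when OIR-Norm replicate 1 was. The rod genes with the lowest p were Kcnj14, a potassium channel gene (-0.40, edgeR adjusted p = 0.208), Grk1, a kinase of the photoreceptor outer segment (-0.22, 0.308), Impg2, a proteoglycan of the matrix around photoreceptors (-0.20, 0.383), Unc119, a trafficking protein (0.23, 0.467), and Rcvrn, the calcium sensor recoverin (0.22, 0.469).

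Summed over the 28 genes, rod RNA ran from 89610 to 103200 CPM in OIR-CIH and from 79380 to 102200 CPM in OIR-Norm, and the groups overlapped. Relative to that sum, all 3 of the upper regulators were higher in OIR-CIH with groups apart. The difference was 0.45 for Nr2e3, 0.25 for Nrl and 0.16 for Crx on the log2 scale. The ratio of Nrl to rod RNA was -5.28 in each of the 3 OIR-CIH libraries and -5.53, -5.61 and -5.44 in OIR-Norm. The exact p was 0.1 for each, the smallest the design allows. With the mean log2 level of the rod genes in place of their sum, an alternative chosen after seeing the data, the differences were 0.48, 0.28 and 0.20. The rod sum is dominated by a few abundant genes.

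Of 16 cone genes 15 were tested, 10 higher and 5 lower in OIR-CIH, and none passed. Their median was 0.09, and the summed level was 4039 to 4357 CPM in OIR-CIH and 4030 to 4542 CPM in OIR-Norm. Opn1mw, the M opsin gene that THRB switches on, lay at 152, 132 and 134 CPM in OIR-CIH and 200, 155 and 158 CPM in OIR-Norm. The groups were apart with OIR-CIH lower, opposite in sign to Thrb, and the log2 difference was -0.30 with an SE of 0.10 (edgeR adjusted p = 0.279). Opn1sw, the S opsin gene, lay at 543, 502 and 492 CPM in OIR-CIH and 569, 423 and 408 CPM in OIR-Norm, with overlapping groups and a log2 difference of 0.14 (edgeR adjusted p = 0.650). Beside Opn1mw, the cone genes with the lowest p were Kcne2, a potassium channel subunit (0.41, edgeR adjusted p = 0.188), Guca1a, an activator of guanylate cyclase shared with rods (0.39, 0.261), Grk1, which belongs to both lists and whose groups were apart with OIR-CIH lower (-0.22, 0.308), and Gnat2, cone transducin (0.19, 0.414).

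A further 22 regulators of retinal and photoreceptor fate were tested, 13 higher and 9 lower in OIR-CIH, with a median of 0.03. Notch1, the receptor that keeps progenitors from becoming photoreceptors, was the only one to pass, beside 0.390% of all genes tested. It lay at 25.1, 26.7 and 30.6 CPM in OIR-CIH and 41.6, 43.3 and 35.4 CPM in OIR-Norm. The groups were apart, and it fell by 0.54 on the log2 scale with an SE of 0.10 (edgeR adjusted p = 0.0478). It no longer passed without OIR-CIH replicate 1 (0.241) or 2 (0.135), or without OIR-Norm replicate 1 (0.109) or 2 (0.152). Below it came Thra, the second thyroid hormone receptor gene (0.27, edgeR adjusted p = 0.208), Tbx2 (0.24, 0.267), the SUMO ligase Pias3 (0.20, 0.299) and Mef2c (-0.24, 0.308), a relative of Mef2d. Mef2c, like Mef2d, had a mean below that of OIR-Norm with overlapping groups. Thra, like Thrb, had groups apart with the higher level in OIR-CIH, a condition met by 9.12% of all genes. Rora, a relative of Rorb, did not share the lower level of Rorb, with a difference of 0.03 and overlapping groups.

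**Figure D5:**
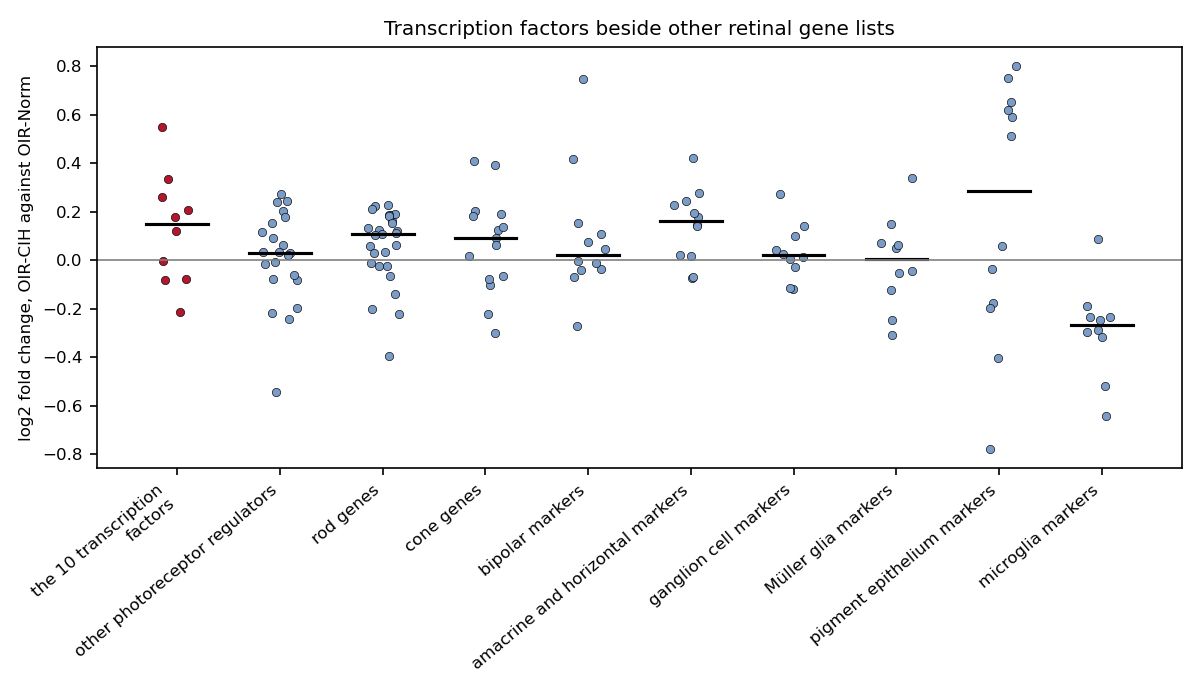
Log2 fold change of OIR-CIH over OIR-Norm from edgeR for each gene of the 10 lists, 1 point per gene with the median marked. The medians lie between -0.27 for the microglia markers and 0.29 for the pigment epithelium markers, with the 10 photoreceptor factors at 0.15.

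Markers of the other retinal cells were listed because several of the 10 factors are made outside photoreceptors as well. Of 12 bipolar markers 1 passed, beside 0.390% of all genes tested. This was Bhlhe23, a factor of rod bipolar cells. It rose by 0.75 on the log2 scale with an SE of 0.10, from 30.3 to 50.9 CPM (edgeR adjusted p = 0.00761). The other 11 did not pass. Of the 12, 6 were higher and 6 lower, and the summed level of the 12 was 1538 to 1635 CPM in OIR-CIH and 1498 to 1741 CPM in OIR-Norm. No gene passed among 12 pigment epithelium markers (7 higher, 5 lower, median 0.29), 12 amacrine and horizontal markers (median 0.16), 10 ganglion cell markers (0.02), 10 Müller glia markers (0.01) or 10 microglia markers (median -0.27, 9 of them lower). Leaving out 1 library moved several of these medians, from 0.17 to 0.52 for the pigment epithelium (without OIR-CIH replicate 1 and without OIR-Norm replicate 1), from 0.057 to 0.23 for amacrine and horizontal cells (without OIR-CIH replicate 3 and 1), from -0.073 to 0.13 for ganglion cells (without OIR-CIH replicate 2 and 1) and from -0.042 to 0.07 for Müller glia (without OIR-CIH replicate 3 and 2). Rpe65, the isomerase of the visual cycle and a defining gene of the pigment epithelium, lay at 61.4, 42.2 and 33.9 CPM in OIR-CIH and 39.0, 25.1 and 23.0 CPM in OIR-Norm, with overlapping groups. The summed microglia markers were lower in OIR-CIH with groups apart, 103 to 120 against 125 to 142 CPM. No tested marker of any list had a count of 0. The part of these cells in the differences of the 10 factors was not tested.

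The genes most like Nr2e3 were sought among 14790 genes of at least 1 CPM on average, by the Pearson correlation of log2(CPM + 0.5) over the 6 libraries, with the 10 factors left out. The closest was Hist1h1c, a linker histone gene, with r = 0.997 over the 6 libraries. It rose in OIR-CIH, from 119.5 ± 18.2 to 209 ± 27.2 CPM (SD, n = 3 each), by 0.81 on the log2 scale with an SE of 0.12 (edgeR adjusted p = 0.0111), and did not pass without OIR-CIH replicate 1 (0.0915). Tmem234 followed with r = 0.993 and a log2 difference of 0.24 (edgeR adjusted p = 0.228), and Tldc1 with r = 0.993 and a difference of 0.43 (0.0669). Once group means were removed, the correlations were 0.985, 0.963 and 0.960. With 6 libraries and this many genes such values are common, 467 genes having r above 0.9, and they are a description only.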

How the data were processed

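Poly(A) RNA libraries were made with a stranded kit from retinas of both groups. The authors aligned reads with STAR 2.7.9a and deposited raw gene counts from STAR's own counting, without normalization. Which strand column was taken is not given in the sources used here. The submitters' processing notes name GRCm38, whereas the study's methods name an Ensembl release built on a later mouse assembly. Symbols, coordinates and exon lengths here are those of GENCODE M21 (GRCm38), which gave a symbol to 32235 of 32285 identifiers. Every count column belonged to a labelled sample. Depth was 26289905 to 38010151 counts per library, and intervals rest on the spread between libraries.

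All genes whose counts summed to 10 or more over the libraries were tested with edgeR 4.0.16 in R 4.3.3 (TMM scaling, quasi-likelihood test, 3 OIR-CIH against 3 OIR-Norm libraries, Benjamini-Hochberg over all genes tested). The SE is the log2 fold change divided by the root of the F statistic. Alternatives were DESeq2 1.42.0, limma 3.58.1 on log2(CPM + 0.5), other scalings and filters, a replicate block and each library left out. The fit was tested on simulated data with known changes. Members and lists were chosen with earlier results of these data known. Named genes were the 10 factors, of each other list at most 5 genes with the lowest p plus Opn1sw, Opn1mw and Rpe65, and 3 genes most correlated with the factor of lowest p. Not all genes so selected are described, and 1 item that the rule names is not reported here. Otx2os1, Gm15507 and 1700113A16Rik are named only as overlapping genes, and Rora only as a relative of Rorb. Promoter windows and the motifs searched in them were chosen after the values had been seen. No protein sequences were used here.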

Additional observations from a re-analysis of the deposited data

How the results depend on the processing

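The signs of 8 of the 10 factors held under every alternative run. Esrrb, which lay at 0, became positive with DESeq2 (4e-04), limma (9e-04), median-of-ratios scaling (4e-04), every gene with a count kept (0.0018) and the replicate block (0.001), and ranged from -0.089 to 0.097 with 1 library left out. Rxrg ranged from -0.16 to 0.011, positive only without OIR-CIH replicate 3. Of the 10 factors 1, Nr2e3, passed with DESeq2 (log2 difference 0.55), total count scaling (0.52), every gene kept (0.55) and the replicate block (0.55, edgeR adjusted p = 0.0425), and 0 to 0 passed with 1 library left out. It missed the threshold with limma (adjusted p = 0.110), edgeR's older quasi-likelihood method (0.0765), median-of-ratios scaling (0.0519) and edgeR's own expression filter (0.0792). Over all genes, DESeq2 called 261 (96 higher, 165 lower) where edgeR called 78 (28 higher, 50 lower). Leaving out 1 library gave 29 genes (OIR-CIH replicate 1 left out) to 102 genes (OIR-Norm replicate 3 left out), 7 to 31 higher and 22 to 84 lower. The medians of the lists also moved with 1 library left out, that of the bipolar markers from -0.04 to 0.10, of the other regulators from -0.011 to 0.061 and of the cone genes from 0.055 to 0.13. The differences in the 12 ratios kept their sign without each library. The causes were not tested. Over 14790 genes, with the 10 factors left out, the replicate numbers showed no pairing. Same-numbered deviations correlated at 0.16, 0.14 and -0.24, with 2 of 6 libraries most like their own number. For the factors themselves the block lowered the SE, from 0.1008 to 0.0652 for Crx and from 0.1199 to 0.0753 for Nrl. Of the 10 only Rxrg had a higher SE with it (0.1303 against 0.1259). Whether same-numbered libraries belong together is not given in the sources used here. The block left 80 genes passing, of which 58 were among the 78. Notch1 did not pass with the block (edgeR adjusted p = 0.111). With 3 libraries a group, a difference under about 0.2 on the log2 scale was comparable to the confidence intervals of most of the 10 factors.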
